A study of Mus musculus with 8 samples.

Results

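The genes described are 34 transcripts of airway and lung epithelium measured in whole mouse hearts, out of 49315 genes in the count tables. All 34 were found by symbol: 9 genes of airway secretory cells, 8 of ciliated cells, 3 of basal cells, 7 of epithelia in general, 3 transcription factors of the foregut lung lineage and 4 surfactant genes. They were selected on their levels in these same 8 libraries, where earlier results had shown airway transcripts in some hearts, so those levels are mainly described. The genotype comparison and the flagged results below use these same levels and carry that limit. The hearts were dissected at E18.5, late in gestation, 4 from wild-type (WT) mice and 4 from mice homozygous for the M195I change in CHD4, the ATPase of the NuRD chromatin-remodelling complex. No treatment, promoter-driven transgene or Cre line is named, and the labels do not say whether littermates were used or whether hearts were pooled.

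The conducting airways are lined by secretory cells, which release secretoglobins and mucins, by ciliated cells, whose beating axonemes move mucus, and by basal cells, which divide to replace both. In the gas-exchange region, alveolar type 2 cells make surfactant, which contains the proteins encoded by Sftpb and Sftpc. The protein encoded by Sftpb is essential for lung inflation at birth. The homeobox factor NKX2-1 and the forkhead factors FOXA1 and FOXA2 drive many of these genes, and FOXJ1 with the RFX factors drives those of motile cilia. Lung, trachea and thymus lie against the heart in the chest, and a normal heart has no airway epithelium.

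Total counts ranged from 18375951 to 21341235 per library. Heart muscle transcripts were abundant in all 8 libraries: the troponin gene Tnnt2 lay between 6748 and 7469 CPM (counts scaled by each library's total), and the Z-disc gene Actn2 between 1920.0 and 2445 CPM. The 34 members together took 0.106%, 0.00357%, 0.112% and 0.0478% of the counts in WT replicates 1 to 4, and 0.00571%, 0.00376%, 0.0849% and 0.164% in mutant replicates 1 to 4. WT replicate 2 and mutant replicates 1 and 2 thus stand apart from the other 5 libraries. Fewer cells of a type and less RNA per cell cannot be told apart in such bulk samples. Counting intervals below are exact (Clopper-Pearson, 95%) and cover counting error only.

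The sequences just upstream of 4 members are shown, because these genes stand for the patterns described next: a secretory gene, a ciliated gene, a surfactant gene seen wherever secretory genes were, and a surfactant gene seen almost only in mutant replicate 4. They are the bases before the RefSeq start site on GRCm38.p6, read 5′ to 3′ on the gene's strand and ended before any annotated exon of the gene, and span chr11:49663345-49663594 (plus strand), chr11:72361883-72362132 (minus), chr6:72304360-72304609 (plus) and chr14:41131538-41131781 (plus). Capitals mark CTCAAG and CACTTG, short forms of the NKX2-1 core, TGTTTAC and TGTTTGC, 2 forkhead forms, and GTTGCC, the core of RFX sites, each searched on both strands.
Scgb3a1: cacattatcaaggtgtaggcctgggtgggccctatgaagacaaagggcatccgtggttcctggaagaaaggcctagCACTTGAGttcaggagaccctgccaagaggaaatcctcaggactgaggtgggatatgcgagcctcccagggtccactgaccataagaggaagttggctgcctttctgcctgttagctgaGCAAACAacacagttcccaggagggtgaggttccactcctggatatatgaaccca
Tekt1: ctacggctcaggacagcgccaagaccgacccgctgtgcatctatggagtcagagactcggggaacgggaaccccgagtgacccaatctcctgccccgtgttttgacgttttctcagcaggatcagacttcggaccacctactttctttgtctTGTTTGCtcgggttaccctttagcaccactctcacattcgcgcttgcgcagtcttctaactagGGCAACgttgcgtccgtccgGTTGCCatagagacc
Sftpb: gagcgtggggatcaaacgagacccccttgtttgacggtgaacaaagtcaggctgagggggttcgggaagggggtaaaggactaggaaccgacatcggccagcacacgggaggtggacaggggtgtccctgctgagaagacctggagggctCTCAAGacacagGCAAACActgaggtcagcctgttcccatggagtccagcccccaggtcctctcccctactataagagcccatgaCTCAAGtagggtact
Sftpa1: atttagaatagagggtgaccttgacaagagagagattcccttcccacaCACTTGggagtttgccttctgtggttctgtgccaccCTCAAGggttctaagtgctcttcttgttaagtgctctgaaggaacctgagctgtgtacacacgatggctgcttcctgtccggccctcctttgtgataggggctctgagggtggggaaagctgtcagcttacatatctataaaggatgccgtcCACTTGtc

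Positions count from -1 at the base before the RefSeq start, where 3 of the printed stretches end, whereas that of Sftpa1 has 244 bases and stops 6 bases short of it, at -7. Sftpb held CTCAAG from -100 to -95 and from -15 to -10, with TGTTTGC on the opposite strand between them from -88 to -82. Sftpa1 held CACTTG from -202 to -197 and from -14 to -9, and CTCAAG from -166 to -161. In Scgb3a1 the NKX2 forms overlapped, CACTTG from -174 to -169 and CTCAAG on the opposite strand from -172 to -167. Tekt1 held GTTGCC from -15 to -10, the same letters on the opposite strand from -35 to -30, and TGTTTGC from -98 to -92. That stretch lies within the annotated span of the gene (chr11:72344722-72362442), and no GENCODE transcript begins at its end. Another RefSeq start site of Tekt1 does begin a GENCODE transcript. The bases upstream of that site (chr11:72361297-72361546, minus) held none of these forms. No GENCODE transcript begins at the RefSeq start of Scgb3a1 or Sftpa1 either, whereas one begins at that of Sftpb. Of the 21 members with an entry in the RefSeq promoter table, 5 held CTCAAG, 5 CACTTG, 1 TGTTTAC, 3 TGTTTGC and 1 GTTGCC. Over all 32851 windows of 250 bases in that table the shares were 13.3%, 11.6%, 3.17%, 4.30% and 10.4% in the same order. A member was counted if any of its windows held the form, whereas the shares are of single windows, so the counts and shares are not like for like. A match is a run of letters and not a measured binding site, and these data hold no measurement of binding.

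Secretory genes had the highest summed level of the groups in the 5 libraries with abundant airway transcripts, and general epithelial genes in WT replicate 2 and mutant replicates 1 and 2. The secretory summed level was 862, 3.65, 922 and 376 CPM in the 4 WT libraries and 16.8, 2.34, 664 and 1161 CPM in the 4 mutant libraries. Scgb3a2, a secretoglobin of airway secretory cells and the highest member per kilobase (mean 254 CPM per kb), stood at 385, 0.817, 436 and 176 CPM in WT replicates 1 to 4, and 6.48, 0.328, 284 and 498 CPM in mutant replicates 1 to 4. It was high in 5 libraries and low in WT replicate 2 and mutant replicates 1 and 2, and both genotypes held high and low libraries. Mutant replicate 4 exceeded mutant replicate 2 by 1519-fold, with 10068 against 7 counts. Scgb3a1, another secretoglobin (mean 67.9 CPM per kb), was at 73.6, 0.336, 86.5 and 31.0 CPM in the 4 WT libraries and 1.55, 0.141, 57.0 and 74.6 CPM in the 4 mutant libraries, and was highest in WT replicate 3. Muc5b, a gel-forming mucin, had 131, 0.288, 123 and 42.8 CPM in the 4 WT libraries and 1.66, 0.469, 89.0 and 146 CPM in the 4 mutant libraries. Reg3g, an antimicrobial lectin, reached 79.2 CPM in mutant replicate 4 and had 0 counts in mutant replicate 2, so it was at least 563-fold higher in the former against a floor of 3 counts in that library.

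The rest of the group followed the same libraries. Cyp2f2, a cytochrome P450 of club cells, had 37.9, 0.144, 36.4 and 18.3 CPM in the 4 WT libraries and 0.910, 0, 35.9 and 62.1 CPM in the 4 mutant libraries. The carbonyl reductase gene Cbr2 stood at 89.9, 1.34, 90.6 and 46.9 CPM in the 4 WT libraries and 3.11, 1.03, 78.2 and 152 CPM in the 4 mutant libraries, so at least 1.03 CPM was counted in every library. Sec14l3, a lipid-binding protein of airway cells, ranged from 0.0469 to 52.6 CPM, and Wfdc2, a secreted protease-inhibitor-like protein, from 0.281 to 46.1 CPM, both highest in mutant replicate 4. In all 9 genes the 3 lowest libraries were WT replicate 2 and mutant replicates 1 and 2. This held for 31 of the 34 members, and for 5.93% of the 16372 genes that passed the filter on low counts. The exceptions were Krt18, Sftpa1 and Sftpc. The choice of members used these levels, so nothing is read from that count. Mutant replicate 4 was the highest library for 30 of the 34, and for 29 of the 33 past the filter, against 21.4% of the 16372 genes. Nothing is read from this count either, for the same reason.

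**Figure D1:**
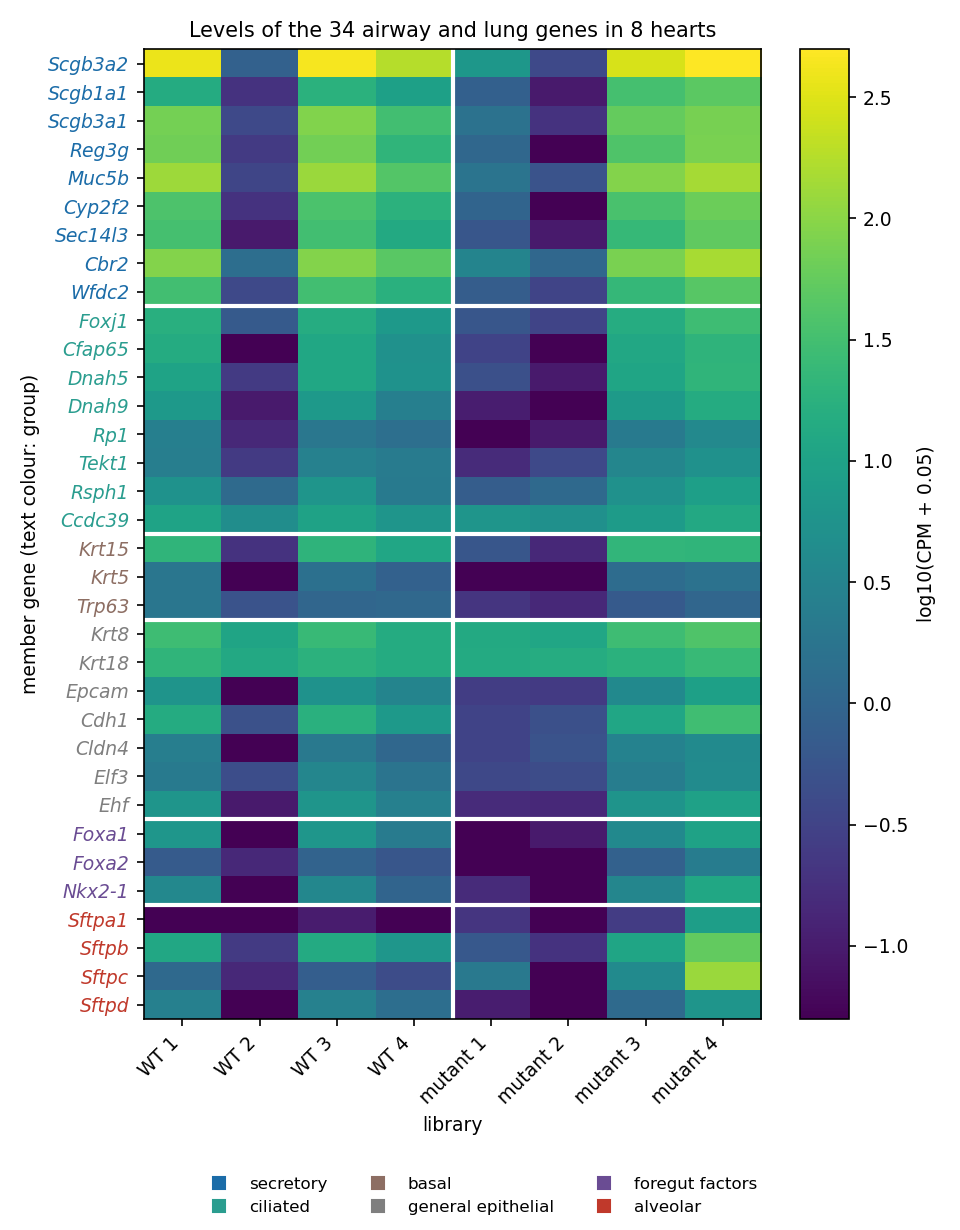
Levels of the 34 members (rows, grouped by cell type and set apart by white lines) in the 8 libraries (columns, WT left and mutant right), as log10 of CPM plus 0.05. WT replicate 2 and mutant replicates 1 and 2 are dark for nearly all members, whereas Krt8, Krt18 and Ccdc39 keep a similar colour across libraries and Sftpc is bright only in mutant replicate 4.

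Scgb1a1 (chr19:9083636-9087958, GRCm38), the club cell secretoglobin, did not keep a fixed ratio to Scgb3a2. Its level was 14.4, 0.144, 17.9 and 9.20 CPM in WT replicates 1 to 4, and 0.803, 0.0469, 33.0 and 49.5 CPM in mutant replicates 1 to 4. Per 100 Scgb3a2 counts there were 3.73 Scgb1a1 counts in WT replicate 1 (3.29 to 4.22), 4.10 in WT replicate 3 (3.69 to 4.56) and 5.23 in WT replicate 4 (4.45 to 6.11). In the mutants there were 12.4 in replicate 1 (6.73 to 21.3), 11.6 in replicate 3 (10.7 to 12.6) and 9.93 in replicate 4 (9.30 to 10.6). These 3 WT and 3 mutant libraries did not overlap, although mutant replicate 1 rested on 15 Scgb1a1 against 121 Scgb3a2 counts. WT replicate 2 gave 17.6 with an interval of 3.31 to 61.0 from 3 counts, and mutant replicate 2 gave 14.3 (0.317 to 111) from 1 count, so neither places its library. The ratio was picked out after its values were seen and was not tested between genotypes.

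For 5 other secretory genes the range against Scgb3a2 was narrower over the 5 libraries with abundant secretory transcripts. Scgb3a1 lay there between 15.0 and 20.1 per 100 Scgb3a2 counts, and Reg3g between 11.8 and 17.3. Muc5b ran from 24.3 to 34.04 in these 5 libraries. Cyp2f2 lay at 9.85, 8.33 and 10.4 in WT replicates 1, 3 and 4 and at 12.6 and 12.5 in mutant replicates 3 and 4. Cbr2 lay at 23.4, 20.8 and 26.7 in the same WT libraries and at 27.5 and 30.5 in the same mutant libraries. Separation was thus not particular to Scgb1a1: Cyp2f2 and Cbr2 also lay higher in these mutant libraries than in these WT libraries. So did the ciliated gene Foxj1, at 3.45 to 4.35 in the WT libraries against 5.21 and 5.82 in mutant replicates 3 and 4. Scgb3a1, Reg3g, Muc5b, Sec14l3, Wfdc2 and Krt15 overlapped between the genotypes there. All of these ratios share the Scgb3a2 count as their base.

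**Figure D2:**
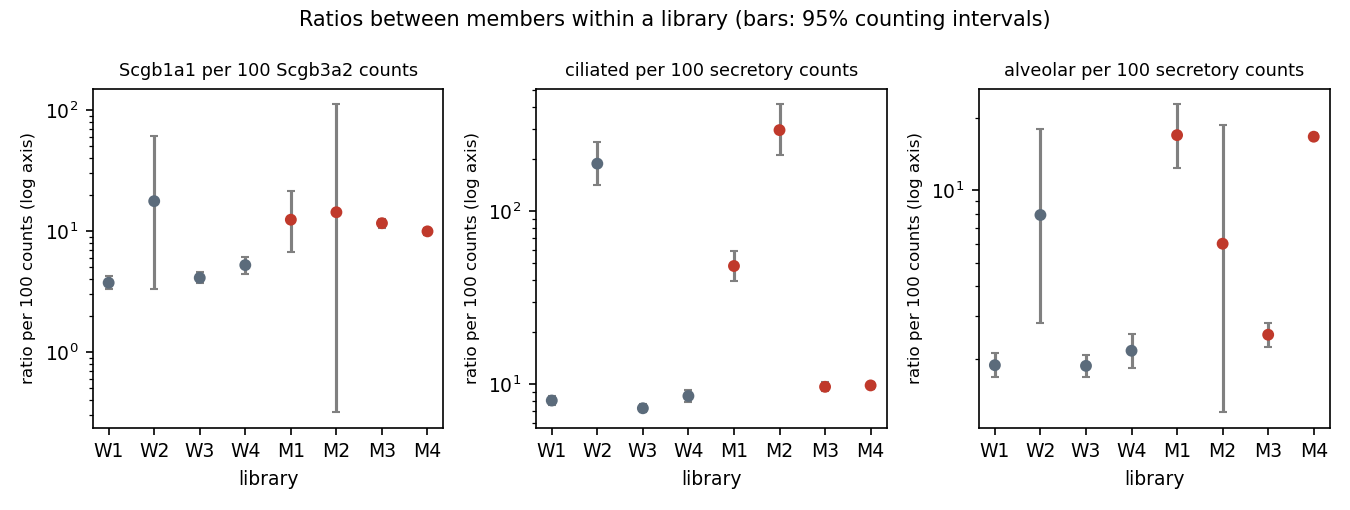
The ratios of 3 pairs of counts within each library on log axes, with 95% exact counting intervals as bars (W, WT, grey; M, mutant, red; numbers are replicates). Scgb1a1 per 100 Scgb3a2 counts is 3.73 to 5.23 in WT replicates 1, 3 and 4 and 9.93 to 12.4 in mutant replicates 1, 3 and 4. The alveolar ratio is highest in mutant replicates 1 (16.9) and 4 (16.7), but the intervals of WT replicate 2 and mutant replicate 2 include both values.

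The ciliated genes moved with the secretory genes. Their summed level was 69.4, 6.87, 67.1 and 32.2 CPM in the 4 WT libraries and 8.09, 6.89, 64.2 and 114 CPM in the 4 mutant libraries. Foxj1 (chr11:116330704-116335399, GRCm38), the master factor of motile cilia, had 16.7, 0.625, 15.1 and 6.86 CPM in WT replicates 1 to 4, and 0.535, 0.281, 14.8 and 29.0 CPM in mutant replicates 1 to 4. Its highest library exceeded its lowest by 103-fold, and the 3 libraries low in secretory genes were again the lowest. The axonemal dynein heavy chain gene Dnah5 had 10.3, 0.192, 11.9 and 5.50 CPM in the 4 WT libraries and 0.428, 0.0469, 11.3 and 20.5 CPM in the 4 mutant libraries, and Dnah9, another such chain, ranged from 0 to 14.2 CPM. Cfap65, a cilia- and flagella-associated protein, was at 0 counts in WT replicate 2 and mutant replicate 2 and reached 19.8 CPM in mutant replicate 4. Rp1, a microtubule-associated protein, ranged from 0 to 3.71 CPM. Tekt1, a tektin of axonemal microtubules whose upstream bases are printed above, ranged from 0.107 to 5.25 CPM, and Rsph1, a radial spoke protein, from 0.696 to 9.01 CPM.

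Ccdc39, an axonemal ruler protein, was the exception in size. It had 10.4, 4.56, 10.2 and 6.09 CPM in the 4 WT libraries and 5.998, 5.06, 7.70 and 12.9 CPM in the 4 mutant libraries, a 2.82-fold range. It made up 95 of 143 ciliated counts in WT replicate 2, 112 of 151 in mutant replicate 1 and 108 of 147 in mutant replicate 2. Exons of Ccdc39 overlap those of Ttc14 over 1256 of its 7443 exonic bases, and whether reads of Ttc14 were counted there was not tested. Exons of Cfap65, Cyp2f2, Dnah9, Elf3 and Krt5 also overlap those of a gene without a functional name, which makes their counts less certain.

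Ciliated and secretory counts kept nearly the same proportion where both were present. Per 100 secretory counts there were 8.06 ciliated counts in WT replicate 1 (7.61 to 8.53), 7.27 in WT replicate 3 (6.88 to 7.68) and 8.56 in WT replicate 4 (7.86 to 9.31). Mutant replicates 3 and 4 had 9.67 (9.11 to 10.3) and 9.85 (9.44 to 10.3). Mutant values thus lay above the WT values with intervals that overlapped for WT replicate 4 and mutant replicate 3. In the 3 low libraries the ratio was 48.2 to 294, where Ccdc39 makes up most ciliated counts. Rsph1 added 24, 13 and 24 ciliated counts in WT replicate 2 and mutant replicates 1 and 2. The secretory base there was only 76, 313 and 50 counts, of which Cbr2 made up 28, 58 and 22. How far Ccdc39 alone raised the ratio was not tested.

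Most genes of the further ciliated and secretory lists had the same 3 lowest libraries, beside 5.93% of all tested genes. From a list of 34 other genes of motile cilia, all passed the filter, and in 32 the 3 lowest libraries were WT replicate 2 and mutant replicates 1 and 2. The exceptions were Rfx2 and Rfx3, transcription factors of ciliogenesis, which are not limited to multiciliated cells. Hydin, of the central pair, had 9.47, 0.432, 8.19 and 3.92 CPM in the 4 WT libraries and 0.750, 0.562, 8.17 and 14.2 CPM in the 4 mutant libraries. The dynein gene Dnah3 was at 0 counts in WT replicate 2 and reached 14.0 CPM in mutant replicate 4. The 3 genes of that list with the highest level per kilobase had a high level everywhere: Tubb4b, a tubulin, lay between 206 and 285 CPM, Tppp3 between 19.9 and 40.5 CPM, and Rfx2 between 13.2 and 15.6 CPM. Tubb4b and Tppp3 are among the 32, since the count asks only which libraries were lowest. Of 24 other secretory genes 17 passed the filter, and 15 of those had the same 3 lowest libraries. Muc16 and Fmo2 did not. Muc5ac, the other main airway mucin, was at 0 counts in the 3 low libraries and between 0.599 and 2.13 CPM in the other 5. Lypd2 ranged from 0 to 9.22 CPM and Aldh1a1, a retinaldehyde dehydrogenase, from 3.94 to 47.9 CPM. Selenbp1 (67.6 to 129 CPM), Gsto1 (35.05 to 53.7 CPM) and Por (56.4 to 67.6 CPM), the highest of the list per kilobase, were abundant in every heart. All 3 are among the 15, so that count does not mean near absence from the 3 low libraries.

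**Figure D3:**
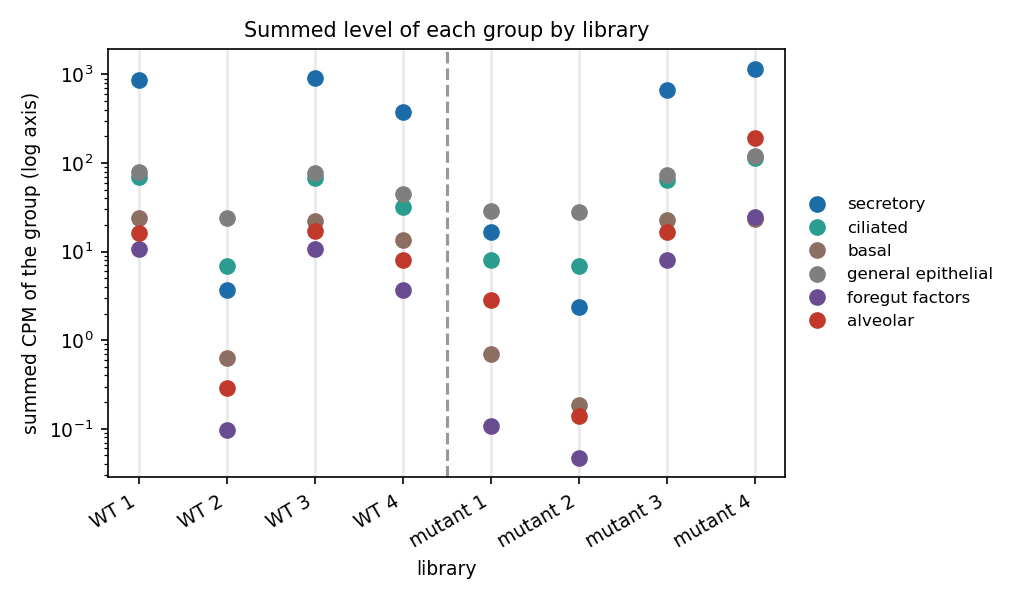
Summed CPM of each group of members in each library, on a log axis, with a dashed line between WT and mutant libraries. Secretory sums span 2.34 to 1161 CPM, general epithelial sums only 24.2 to 121 CPM, and the alveolar sum rises above the ciliated sum only in mutant replicate 4.

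Basal cell genes were present with the others but were not highest in mutant replicate 4. Krt15 (chr11:100131758-100135928, GRCm38), a basal keratin, was at 20.4, 0.144, 19.5 and 11.6 CPM in WT replicates 1 to 4, and 0.535, 0.0937, 21.1 and 20.6 CPM in mutant replicates 1 to 4. Its 5 higher libraries lay between 11.6 and 21.1 CPM, and mutant replicate 4 lay within that range. Krt5, the defining basal keratin, ranged from 0 counts in WT replicate 2 and mutant replicates 1 and 2 to 1.78 CPM in WT replicate 1. Trp63, the factor that maintains basal cells, had 1.83, 0.480, 0.981 and 1.09 CPM in the 4 WT libraries and 0.161, 0.0937, 0.628 and 0.990 CPM in the 4 mutant libraries. Per 100 secretory counts there were 2.0 basal counts in mutant replicate 4 (1.82 to 2.19), the lowest of the 8, and between 2.38 and 3.59 in the other 4 libraries with abundant secretory transcripts. Among 12 other basal genes 8 passed the filter and 2 followed the 3 low libraries (Aqp3, an aquaglyceroporin, from 0.214 to 2.83 CPM, and Sfn). Perp, a desmosomal protein, fell in the mutants (218 to 236 CPM against 253 to 260 CPM in WT, log2 fold change -0.22 ± 0.04, SE, adjusted p = 0.0020 in the quasi-likelihood test of edgeR). Krt14 lay between 3.63 and 7.22 CPM and Snai2 between 7.85 and 11.7 CPM, with neither following the airway members.

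Among the general epithelial genes, the adhesion genes tracked the airway and the simple keratins did so only in part. Cdh1, E-cadherin, had 14.3, 0.432, 17.3 and 6.91 CPM in the 4 WT libraries and 0.268, 0.422, 11.6 and 29.3 CPM in the 4 mutant libraries, a 110-fold range. Epcam, an epithelial adhesion molecule, was at 0 counts in WT replicate 2 and reached 9.15 CPM in mutant replicate 4. The epithelial ETS factors Ehf and Elf3 ranged from 0.0480 to 9.75 CPM and from 0.321 to 4.21 CPM, and the tight junction gene Cldn4 from 0 to 4.06 CPM. Krt8, a simple epithelial keratin, kept 28.5, 10.7, 25.1 and 14.5 CPM in the 4 WT libraries and 13.3, 11.4, 28.1 and 39.6 CPM in the 4 mutant libraries, a 3.71-fold range. Its partner Krt18 had 20.4, 12.7, 18.4 and 14.4 CPM in the 4 WT libraries and 14.1, 15.0, 17.8 and 24.7 CPM in the 4 mutant libraries, a 1.95-fold range in which mutant replicate 2 lay above WT replicate 4. The epicardium, the mesothelium of the heart surface, also expresses these keratins. Of 10 mesothelial genes, all passed the filter and 1, Krt19 (26.3 to 53.3 CPM), had the same 3 lowest libraries. Upk3b, at 67.5 to 97.4 CPM, and Msln, at 47.45 to 81.4 CPM, were present in every library, and the part of epicardial cells in the Krt8 and Krt18 levels was not tested. Msln, Upk1b (13.4 to 21.96 CPM) and Lrrn4 fell in the mutants (log2 fold changes -0.39 ± 0.10, -0.48 ± 0.08 and -0.31 ± 0.09, SE; edgeR adjusted p = 0.039, 0.00094 and 0.030).

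The foregut factors were scarce and highest in mutant replicate 4. Foxa1 had 6.30, 0, 6.28 and 2.23 CPM in the 4 WT libraries and 0, 0.0469, 3.87 and 10.2 CPM in the 4 mutant libraries. Foxa2 ranged from 0 to 2.38 CPM. Nkx2-1 (chr12:56531958-56536908, GRCm38), the lung and thyroid lineage factor, had 3.66, 0, 3.48 and 0.925 CPM in the 4 WT libraries and 0.107, 0, 3.403 and 11.8 CPM in the 4 mutant libraries. Relative to WT replicate 3, mutant replicate 4 had 3.395 times the Nkx2-1 level, 2.69 times that of Foxa2 and 1.62 times that of Foxa1. Per 100 Foxa1 counts there were 58.1 Nkx2-1 counts in WT replicate 1 (42.5 to 79.0), 55.5 in WT replicate 3 (40.9 to 74.7) and 41.5 in WT replicate 4 (22.1 to 74.6). Mutant replicate 3 had 87.8 (62.0 to 124), with an interval that overlapped all of these WT intervals, and mutant replicate 4 had 116 (95.9 to 140.5). The thyroid genes Tg, Duox2 and Iyd did not follow Nkx2-1, at 7.32 to 10.6, 0.442 to 0.871 and 0.577 to 1.20 CPM.

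The 4 surfactant genes split into 2 patterns. Sftpb, surfactant protein B, was at 12.4, 0.192, 13.6 and 6.37 CPM in WT replicates 1 to 4, and 0.589, 0.141, 11.2 and 55.4 CPM in mutant replicates 1 to 4. It was present in the 5 libraries with secretory transcripts, and mutant replicate 4 stood above the other 4 of these. Per 100 Scgb3a2 counts Sftpb had 3.22, 3.13 and 3.62 counts in WT replicates 1, 3 and 4, 3.96 in mutant replicate 3 and 11.1 in mutant replicate 4. Sftpd, a collectin of airway and alveolus, had 2.69, 0, 2.80 and 1.36 CPM in the 4 WT libraries and 0.0536, 0, 1.15 and 5.99 CPM in the 4 mutant libraries. Its ratio to Scgb3a2 was 0.405 to 0.773 per 100 in the first 4 of these libraries and 1.20 (0.996 to 1.44) in mutant replicate 4.

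Sftpc and Sftpa1 behaved otherwise. Sftpc (chr14:70520941-70524081, GRCm38), surfactant protein C, the defining gene of alveolar type 2 cells, had 1.13, 0.0961, 0.736 and 0.381 CPM in WT replicates 1 to 4, and 2.04, 0, 4.08 and 124 CPM in mutant replicates 1 to 4. In mutant replicate 4 it had 2498 counts, and the next library, mutant replicate 3, had 78. Sftpa1, surfactant protein A, was at 0 counts in 4 libraries, had 1 count in WT replicate 3, 3 and 4 counts in mutant replicates 1 and 3, and 172 counts (8.51 CPM) in mutant replicate 4. Per 100 Sftpb counts there were 223 Sftpc counts in mutant replicate 4 (208 to 240), against 9.13 in WT replicate 1 (5.54 to 14.3), 5.40 in WT replicate 3 (2.98 to 9.06), 5.98 in WT replicate 4 (2.35 to 12.7) and 36.3 in mutant replicate 3 (27.6 to 47.2). Mutant replicate 1, with few secretory counts, had 38 Sftpc against 11 Sftpb counts, a ratio of 345 (173 to 749). Its alveolar sum was 16.9 per 100 secretory counts (12.4 to 22.7) and that of mutant replicate 4 was 16.7 (16.1 to 17.3). The other 4 libraries with abundant secretory transcripts had 1.87 to 2.51. WT replicate 2 had 7.9 (2.81 to 18.0, from 6 counts) and mutant replicate 2 had 6 (1.20 to 18.6, from 3 counts). Their intervals include the values of mutant replicates 1 and 4, so these 2 libraries are not placed.

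Other alveolar genes marked the same library. Over all genes, 11 had at least 5 CPM in one library and at least 4 times the level of the next, and all 11 were highest in mutant replicate 4. They were Sftpb, Sftpc and Sftpa1 and 8 others, each in one of the lung or gland lists. Slc34a2, a phosphate transporter of type 2 cells, had 0.162, 0, 0.294 and 0.0544 CPM in the 4 WT libraries and 0.321, 0.0469, 0.942 and 26.3 CPM in the 4 mutant libraries. Cldn18, a lung claudin, was at 8.21 CPM and 39.2 times the next library, Cxcl15, a lung chemokine, at 13.3 CPM and 28.2 times, Lyz1, a lysozyme, at 11.5 CPM and 23.8 times, and Hc, complement component 5, at 9.25 CPM and 21.5 times. The lysosomal gene Lamp3 was at 7.17 CPM and 17.1 times the next library, and Chil1, a chitinase-like protein, at 6.28 CPM and 4.62 times. In the next library there were 4 counts of Cldn18, 9 each of Cxcl15 and Lyz1, and 8 each of Hc and Lamp3. The folds of these genes thus carry a large counting error. Ager, a defining gene of alveolar type 1 cells, was at 16.2 CPM in mutant replicate 4 and between 2.30 and 3.37 CPM elsewhere. Of the 13 genes of the type 2 list 6 passed the filter. The 2 of these with the low libraries of the airway members as their 3 lowest were Abca3 (36.9 to 49.9 CPM) and Lpcat1. Lyz2, which macrophages also express, rose (0.54 ± 0.10, SE, edgeR adjusted p = 0.0045), whereas Etv5 (-0.32 ± 0.09, adjusted p = 0.036) and Fabp5 (-0.20 ± 0.05, adjusted p = 0.025) fell in the mutants. Lpcat1 lay between 23.1 and 36.5 CPM. In the type 1 list, Clic5 (-0.33 ± 0.04), Cryab (-0.29 ± 0.05) and Lmo7 (-0.17 ± 0.04) fell (SE; edgeR adjusted p = 7.4e-05, 0.0014 and 0.0088). These 3 genes and Hopx (267 to 317 CPM) were above 100 CPM in every heart and are heart muscle genes as well.

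**Figure D4:**
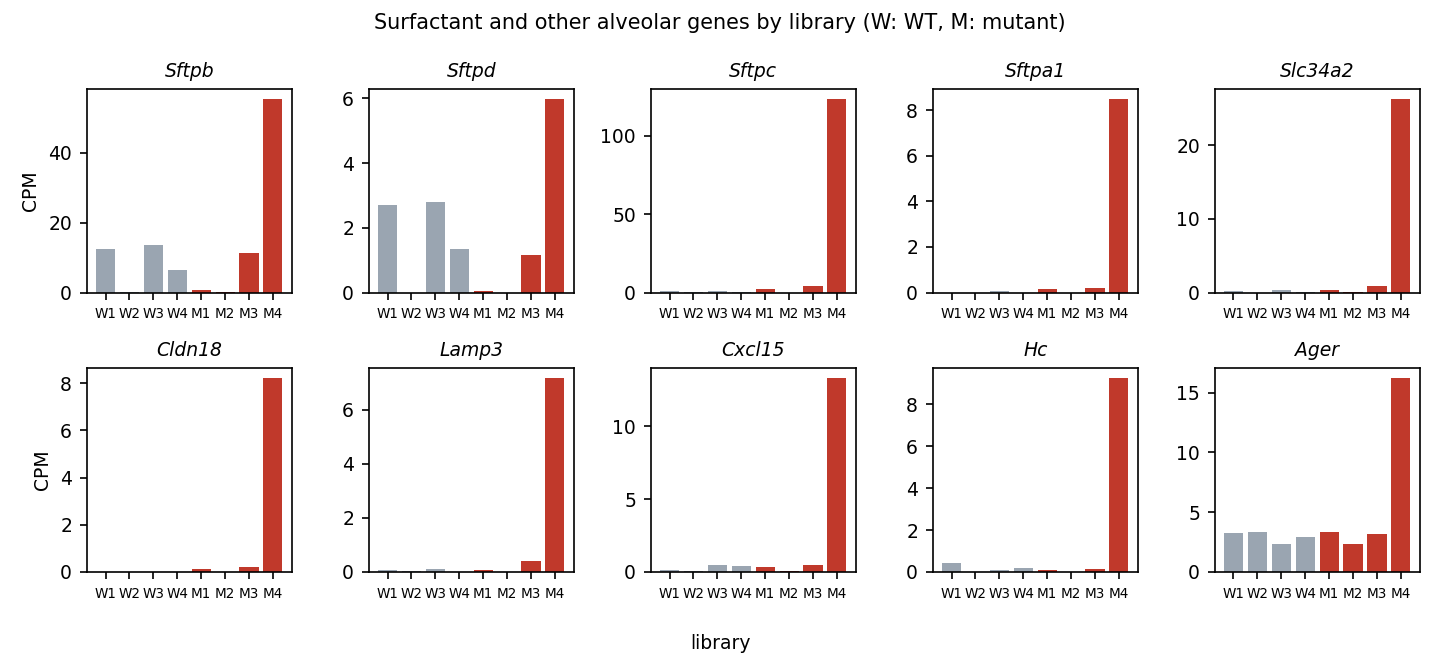
CPM by library (W, WT, grey; M, mutant, red) of the 4 surfactant members and 6 other alveolar genes, each on its own linear axis from 0. Sftpb and Sftpd are visible in 5 libraries, whereas Sftpc, Sftpa1, Slc34a2, Cldn18, Lamp3, Cxcl15 and Hc are near 0 outside mutant replicate 4, and Ager stands at 2.30 to 3.37 CPM in the other 7.

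Taking WT replicate 3 as reference showed how far each group scaled as a block. In WT replicate 1 the median ratio was 0.992 for the 9 secretory members (0.802 to 1.06) and 0.991 for the 8 ciliated members (0.867 to 1.42). In WT replicate 4 it was 0.432 for secretory (0.300 to 0.567), 0.458 for ciliated (0.355 to 0.817) and 0.594 for basal members (0.574 to 1.11). Mutant replicate 3 had 0.757 for secretory (0.574, Reg3g, to 1.84, Scgb1a1) and 0.993 for ciliated members (0.758 to 1.22). In mutant replicate 4 the median was 1.502 for secretory (0.863, Scgb3a1, to 2.76, Scgb1a1) and 1.80 for ciliated members (1.27 to 1.99). It was 1.06 for basal (1.01 to 1.11), 1.64 for general epithelial (1.24 to 2.02) and 2.69 for foregut members (1.62 to 3.395). The 3 alveolar members with over 3 counts in WT replicate 3 had 2.14 (Sftpd), 4.06 (Sftpb) and 168 times (Sftpc) its level there.

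**Figure D5:**
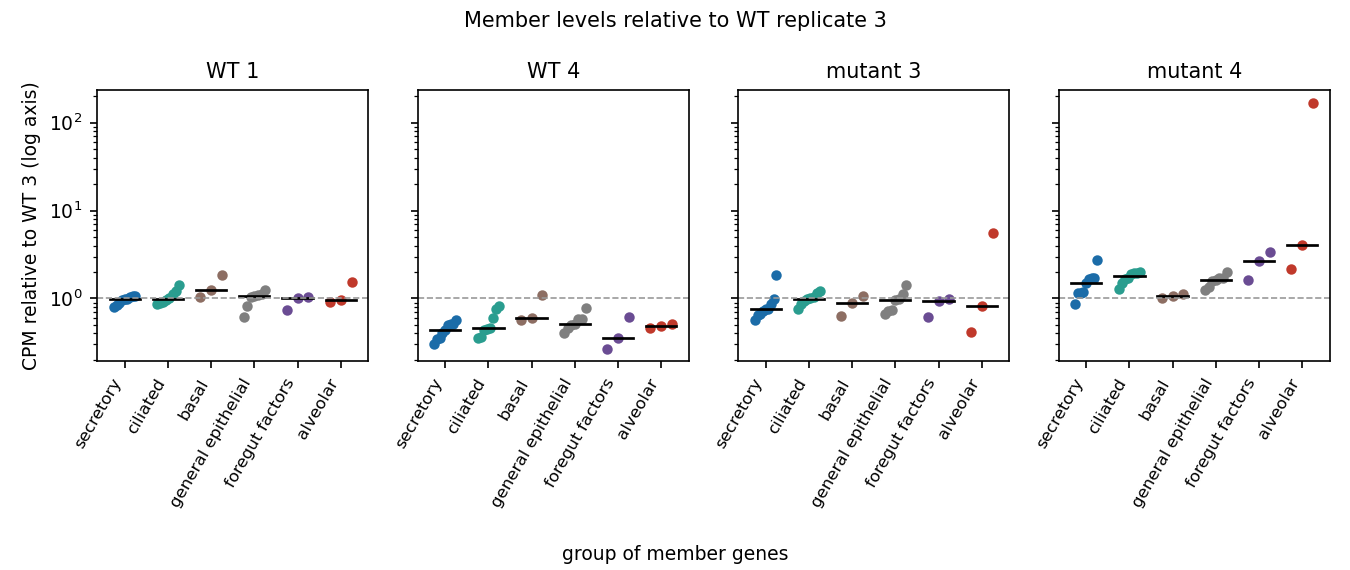
Each member's CPM divided by its CPM in WT replicate 3 (dashed line at 1, log axis) in the other 4 libraries with abundant secretory transcripts, by group; points are genes and black lines are group medians. Medians lie near 1 in WT replicate 1, between 0.355 and 0.594 in WT replicate 4, and in mutant replicate 4 run from 1.06 (basal) to 4.06 (alveolar).

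Lists of neighbouring tissues were read in the same way. Of 12 lung mesenchyme genes, all passed the filter and 3 had the 3 lowest libraries of the airway members. The highest per kilobase, Tbx5 (78.6 to 102 CPM), Tcf21 (35.7 to 46.0 CPM) and Limch1 (50.7 to 63.7 CPM), are heart genes as well. Tbx4, a lung and limb factor, had 1.29, 0.0961, 1.18 and 0.490 CPM in the 4 WT libraries and 0.161, 0, 1.15 and 3.91 CPM in the 4 mutant libraries. Hhip, which binds hedgehog, had 5.38, 0.0480, 3.83 and 2.503 CPM in the 4 WT libraries and 0.696, 0.469, 4.08 and 11.2 CPM in the 4 mutant libraries. Tcf21 fell in the mutants (-0.25 ± 0.05, SE, edgeR adjusted p = 0.0054). Of the 14 cartilage genes 12 passed and none had those 3 lowest libraries. Col2a1, the main cartilage collagen, was at 3.55, 1.20, 9.71 and 1.58 CPM in the 4 WT libraries and 1.82, 2.39, 3.87 and 11.5 CPM in the 4 mutant libraries, high in WT replicate 3 and mutant replicate 4 and not in the other libraries with airway transcripts. Acan lay between 9.56 and 24.8 CPM, Sox9 between 18.48 and 22.4 CPM and Col9a2 between 5.62 and 10.9 CPM. Col11a1 fell in the mutants (-0.57 ± 0.14, SE, edgeR adjusted p = 0.031).

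Thymocyte genes were near 0 but not evenly so. Rag1, the recombinase of developing lymphocytes, had 1, 0, 24 and 5 counts in WT replicates 1 to 4 and 3, 2, 1 and 29 counts in mutant replicates 1 to 4. Cd8a had 6 counts in WT replicate 3 and 9 in mutant replicate 4, and at most 1 elsewhere. Foxn1, the thymic epithelial factor, was at 0 in all 8, which allows up to 3 counts in each. Lck lay between 0.707 and 1.63 CPM and Cd4 between 0.187 and 0.643 CPM. No gene of the gland list passed the filter. Smgc and Dcpp2 were at 0 counts throughout, Tff3 had at most 3 counts, and Lyz1 is described above. The neuroendocrine genes Calca, Cxcl13 and Syp lay between 0.592 and 1.54, 0.624 and 2.47, and 1.03 and 3.58 CPM. In the oesophagus list, Sox2, which the airway shares, had 3.28, 0, 3.48 and 1.91 CPM in the 4 WT libraries and 0.214, 0.141, 2.56 and 6.28 CPM in the 4 mutant libraries, and the squamous keratin gene Krt4 had 0.700, 0, 1.18 and 0.762 CPM in the 4 WT libraries and 0, 0.0469, 1.47 and 1.34 CPM in the 4 mutant libraries. These were the 2 of 7 oesophagus genes past the filter whose 3 lowest libraries were those of the airway members. Sbsn (5.15 to 8.2 CPM), Dmkn (3.89 to 8.27 CPM) and Lgals7 (2.78 to 5.65 CPM) did not have them.

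Between the genotypes, no member passed the test across all genes. Of the 34, 33 passed the filter, Sftpa1 not, and 0 of 33 had an adjusted p under 0.05 (edgeR quasi-likelihood test with Benjamini-Hochberg adjustment over 16372 genes), while 13.2% of all tested genes did. None had an unadjusted p under 0.05. DESeq2 called 0 of the 27 members to which it gave an adjusted p and limma-voom 0 of 33, with 1 member each at an unadjusted p under 0.05. Log2 fold changes (mutant minus WT) were negative for 16 and positive for 17 members, with a median of 0.02, beside a median of 0.00 over all tested genes. They were estimated poorly: standard errors ran from 0.22 (Krt18) to 2.38 (Sftpc), where the median over all tested genes was 0.08. WT and mutant levels overlapped for every member, 0 of 34 being separate, whereas 21.4% of tested genes had no overlap. Across all genes 942 were higher and 1226 lower in the mutants, and with library totals in place of TMM scaling 1856 and 858. The members were selected on levels that were high and low within both genotypes. Wide spreads, overlap and a lack of calls go with that selection, so nothing is read from these counts beside the shares. A p that misses the threshold does not show equal levels.

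By group, the most abundant members had wide spreads. Scgb3a2 averaged 249 ± 200.4 CPM over WT hearts and 197 ± 240.3 CPM over mutant hearts (SD, n = 4 each; -0.39 ± 1.71, SE, edgeR adjusted p = 0.94). Foxj1 stood at 9.82 ± 7.50 and 11.2 ± 13.7 CPM (0.14 ± 1.34, adjusted p = 0.98 in edgeR), and Krt15 at 12.9 ± 9.38 and 10.6 ± 11.9 CPM (-0.33 ± 1.38, adjusted p = 0.93 in edgeR). Krt8 had 19.7 ± 8.46 and 23.1 ± 13.3 CPM (0.18 ± 0.52, adjusted p = 0.89 in edgeR), and Foxa1 3.70 ± 3.12 and 3.53 ± 4.80 CPM (-0.12 ± 1.55, adjusted p = 0.98 in edgeR). Sftpc, with means of 0.586 ± 0.448 CPM (WT) and 32.4 ± 60.8 CPM (mutant), had the largest fold change (5.73 ± 2.38, SE, edgeR adjusted p = 0.19), and without mutant replicate 4 it was 1.75 (adjusted p = 0.50). Trp63, at 1.10 ± 0.557 and 0.468 ± 0.421 CPM, had -1.26 ± 0.65 (adjusted p = 0.27 in edgeR). Of the alternatives that gave it an adjusted p, it passed only edgeR with no filter on low counts (-1.25, adjusted p = 0.0070). DESeq2 gave it none, and the filter of at least 1 CPM in 4 libraries left it out.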

How the data were processed

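RNA was sequenced from 8 whole hearts. The submitters' processing notes list Trimmomatic 0.36 for trimming, STAR 2.5.2b for alignment to GRCm38 and Subread 1.5.2 (featureCounts) for counting, and neither strand setting nor annotation release is named. The deposited files hold whole-number gene counts, unnormalised, and the library files and the series-wide table differed in 0 values. Symbols came from GENCODE M21, exon overlaps from coordinates in the count files and upstream sequences from RefSeq (GRCm38.p6), whose start sites can differ from those of GENCODE. Members, groups and lists (13 lists, 182 entries, 2 matched through RefSeq synonyms) were chosen with earlier results of these data known.

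CPM used library totals. Genotypes were compared with edgeR 4.0.16 (R 4.3.3; filterByExpr, minimum count 10; TMM; robust quasi-likelihood test; Benjamini-Hochberg over 16372 genes), tested on simulated data. DESeq2 1.42.0 and limma 3.58.1 were alternatives. P-values measure only the spread between these samples. Chi-square per degree of freedom between libraries of a genotype was 2.87 to 9.18, above sampling noise. Named were all members, the 3 highest genes per kilobase and any called gene of each list, and up to 8 genes with 5 CPM or more and at least 4-fold above the next library. One gene that this rule names is not reported here. Further genes of the lists were named after their values were seen.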

Additional observations from a re-analysis of the deposited data

Results flagged for a closer look

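Sftpa1 in mutant replicate 4, at 8.51 CPM, stood far from the other 3 mutants, of which the nearest had 0.209 CPM. Sftpc in the same library, at 124 CPM, stood far from the nearest mutant at 4.08 CPM. Sftpa1 in WT replicate 3, at 0.0491 CPM, rests on 1 count where the other 3 WT libraries had none. The gap was compared with the range of the 4 libraries of a genotype (Dixon's ratio, at its 95% critical value) for 68 groups of member and genotype. Of the 68 groups 3 were flagged, 2 of them for mutant replicate 4. Chance flags about 1 group in 20, which would give about as many flags, and members share libraries. The members were also selected on these levels.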

How the results depend on the processing

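Under DESeq2, limma-voom, RLE size factors, library totals, a filter of at least 1 CPM in 4 libraries, an adjusted p under 0.01 and leaving out each library in turn (range 0 to 0), 0 airway members passed between genotypes, and with no filter on low counts 1 did (Trp63). DESeq2 gave 6 members no adjusted p, Sftpc and Trp63 among them, and the filter of at least 1 CPM in 4 libraries kept 31. Over all genes 2168 passed, 1036 at an adjusted p under 0.01, and 1525 to 1987 with a library left out. With the replicate number as a block 2455 genes and 0 members passed. Deviations of same-numbered libraries from their group means correlated at -0.52, 0.77, 0.56 and 0.10 for numbers 1 to 4, positive for 3 and negative for number 1, so the numbers were not read as pairs. The fold change was recomputed for 7 members, and its sign was not stable for 5 of these: leaving out a library gave -1.40 to 0.0234 for Scgb3a2, -0.96 to 0.54 for Foxj1, -0.916 to 0.0838 for Krt15, -0.20 to 0.40 for Krt8 and -1.55 to 0.29 for Foxa1. Foxj1 was at -1.01 with limma-voom and -0.29 with the replicate block. The fold of the highest over the lowest library was 495 for the secretory sum, 16.7 for ciliated, 128 for basal, 4.99 for general epithelial, 521 for foregut (93.01 to 20600 by counting, 1 count in the lowest) and 1377 for alveolar members (471 to 6679, 3 counts). Without the member with the most counts it was 329, 13.7, 38.5 (10.2 to 324, 2 counts) and 5.99 for the first 4 and 497 for alveolar members. For foregut factors the lowest library then had 0 counts and no fold was given. TMM scaling and totals without member, mitochondrial and haemoglobin genes kept these folds within their counting intervals. Members at 0 to 3 counts in the low libraries are limited by depth.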
